A study of Mus musculus with 26 samples.

Results

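The mouse potassium channel genes, whose symbols begin with Kcn, were followed through 8 lists of open-chromatin regions. Every row of a list whose assigned gene was protein-coding and carried such a symbol was taken. This gave 79 genes of the 15172 protein-coding genes that had a peak in any list. RefSeq holds 94 such genes, and the other 15 had no peak in any of the 8 lists. Those 15 were Kcna7, Kcne1, Kcne1l, Kcne2, Kcne4, Kcnj13, Kcnj14, Kcnj15, Kcnj16, Kcnk16, Kcnk18, Kcnmb1, Kcnmb3, Kcnrg and Kcnv2. The name rule used no measured value beyond the presence of a peak.

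The assay was ATAC-seq, which uses a transposase to cut and tag DNA that is not packed away by nucleosomes, so that open chromatin is sequenced. The nuclei came from D1 and D2 medium spiny neurons (MSNs), the projection neurons of the striatum that carry the dopamine receptors Drd1 and Drd2. The series title places them in the nucleus accumbens, and the labels give only brain as tissue, with no age, sex, strain or sorting line. Each cell type was profiled at baseline (SS), after acute cocaine (SC), after chronic cocaine and a long withdrawal (CS) and at cocaine relapse (CC). Of 26 libraries, both SS groups hold 2 each, the other D1 groups 4 each, D2 CS 8, and D2 SC and D2 CC 1 each. One list was deposited for each of the 8 groups, so no value here has a replicate error, no test between groups was possible, and every difference describes these lists.

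Potassium channels let potassium leave the cell and so set the resting potential and end the action potential. MSNs are known for a very negative resting state held by inward rectifiers of the Kir2 group. A-type channels and their partner proteins delay firing, M-current channels of the Kcnq group damp it and calcium-activated channels shape the pause after a spike. Kir3 (GIRK) channels are opened by G proteins downstream of many transmitter receptors.

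RefSeq promoter windows (build GRCm38.p6) were at hand for 57 of the 79 genes. That is under 80%, so a check of promoter composition over the whole family was void, and only single genes are shown. The 250 bases before a start site are printed for genes chosen, after their peaks were known, to show the 3 kinds of promoter met below. Where a gene had several windows, the one overlapped by peaks of the most lists was printed. The first 3 had a promoter peak in every list. Kcnj2 encodes the inward rectifier Kir2.1 (chr11:111065914-111066163, plus strand). Kcnj3 encodes the GIRK1 subunit (chr2:55435720-55435969, plus strand). Kcnd2 encodes the A-type channel Kv4.2 (chr6:21215096-21215345, plus strand). Capitals mark each CpG, the dinucleotide that is crowded in the promoters of many broadly used genes.
Kcnj2: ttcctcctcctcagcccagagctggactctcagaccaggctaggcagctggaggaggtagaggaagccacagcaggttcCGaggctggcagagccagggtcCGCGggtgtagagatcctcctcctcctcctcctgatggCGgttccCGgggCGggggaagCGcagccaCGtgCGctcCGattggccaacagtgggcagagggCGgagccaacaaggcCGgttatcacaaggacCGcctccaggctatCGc
Kcnj3: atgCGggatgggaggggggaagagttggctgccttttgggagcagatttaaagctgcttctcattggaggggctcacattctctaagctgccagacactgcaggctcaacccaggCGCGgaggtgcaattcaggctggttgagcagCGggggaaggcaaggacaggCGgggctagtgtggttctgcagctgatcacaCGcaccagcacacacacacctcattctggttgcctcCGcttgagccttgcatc
Kcnd2: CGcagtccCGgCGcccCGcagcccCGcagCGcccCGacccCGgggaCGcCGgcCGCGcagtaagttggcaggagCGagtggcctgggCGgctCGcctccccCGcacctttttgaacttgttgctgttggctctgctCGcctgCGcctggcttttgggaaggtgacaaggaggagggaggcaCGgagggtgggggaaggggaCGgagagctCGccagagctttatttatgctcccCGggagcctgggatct

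The next pair had a promoter peak in every list except D1 SS. Kcnj9 encodes GIRK3 (chr1:172329323-172329572, minus strand). Kcnip1 encodes KChIP1, a calcium-binding partner of the A-type channels (chr11:33843687-33843936, minus strand).
Kcnj9: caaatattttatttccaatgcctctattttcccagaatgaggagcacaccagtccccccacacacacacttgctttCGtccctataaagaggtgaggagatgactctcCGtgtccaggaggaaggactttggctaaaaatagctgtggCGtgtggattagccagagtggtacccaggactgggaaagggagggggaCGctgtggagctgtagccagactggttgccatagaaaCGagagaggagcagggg
Kcnip1: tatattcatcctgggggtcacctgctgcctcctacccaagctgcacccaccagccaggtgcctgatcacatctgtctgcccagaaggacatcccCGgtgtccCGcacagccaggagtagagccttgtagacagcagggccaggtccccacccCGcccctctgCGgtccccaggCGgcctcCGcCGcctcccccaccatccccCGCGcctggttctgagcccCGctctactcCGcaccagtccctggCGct

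The last pair had no promoter peak in any list. Kcnj1 encodes the kidney channel ROMK (chr9:32393735-32393984, plus strand). Kcna10 encodes a Shaker-type channel known from the inner ear (chr3:107182893-107183142, plus strand).
Kcnj1: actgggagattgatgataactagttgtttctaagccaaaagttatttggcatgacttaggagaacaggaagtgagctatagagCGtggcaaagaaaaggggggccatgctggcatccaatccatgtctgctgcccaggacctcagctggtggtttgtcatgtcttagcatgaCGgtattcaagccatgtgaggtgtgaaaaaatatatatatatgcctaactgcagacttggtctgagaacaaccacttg
Kcna10: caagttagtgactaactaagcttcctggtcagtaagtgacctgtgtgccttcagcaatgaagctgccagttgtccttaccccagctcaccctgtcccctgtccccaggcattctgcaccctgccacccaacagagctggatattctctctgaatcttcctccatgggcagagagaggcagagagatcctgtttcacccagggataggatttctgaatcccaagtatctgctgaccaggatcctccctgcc

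Through this choice of window, the overlap counts that follow are the highest for each gene and are no check of its calls. Peaks of all 8 lists overlapped the printed windows of Kcnj2, Kcnj3 and Kcnd2. Peaks of 6 lists overlapped that of Kcnj9, of 7 that of Kcnip1 and of 0 those of Kcnj1 and Kcna10. In D1 SC the promoter peak of Kcnj9 lay beside the printed bases. The windows held 14 CpG in Kcnj2, 7 in Kcnj3, 22 in Kcnd2, 5 in Kcnj9, 12 in Kcnip1, 2 in Kcnj1 and 0 in Kcna10. The median over 32851 RefSeq windows was 6, with quartiles at 2 and 16. Kcnj3 and Kcnj9 lay close to this median. Any link of CpG content to the promoter calls was not tested. The GC box GGGCGG, sought on both strands, occurred 2 times in Kcnj2, 1 time each in Kcnd2 and Kcnip1, and in none of the other 4 windows, against 32.7% of all windows with at least 1. The TATA box letters TATAAA, also sought on both strands, were found in Kcnj9 alone of the 7, against 12.4% of all windows. The CRE letters TGACGTCA (1.55% of windows) and the AP-1 letters TGACTCA (4.46%) were in none of the 7 windows.

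The lists differed widely in length, from 27917 peaks in D2 CS to 77103 in D1 CC, and read totals were not in the lists. They also fell into 2 technical sets by their peaks on patch scaffolds, which are alternative pieces of the genome build. The patch-rich lists, D2 CS and every D1 list but SS, held 71 to 144 such peaks. The patch-poor lists, D1 SS and every D2 list but CS, held 4 to 7. Of the 14 comparisons below, 7 lie within a set, and in the other 7 the set and the group cannot be told apart. All 6 general MSN markers had a peak in every list. Of 6 D2 MSN markers, 1 had a peak in D1 SS, 5 in D1 SC and D1 CS and 6 in D1 CC and each D2 list. Of 6 D1 MSN markers, 5 or 6 had a peak in every list, so presence alone was near its maximum. By covered length, D2 MSN markers took 0.00321 to 0.0380% of the coding total in D1 lists and 0.0590 to 0.0701% in D2 lists, which do not overlap. D1 MSN markers took 0.0470 to 0.0794% in D1 and 0.0429 to 0.0485% in D2, which overlap. Of 21 markers of other cell types, 6, 4, 12 and 18 had a peak in D1 SS, SC, CS and CC, and 10, 8, 6 and 11 in D2, in the same order.

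In every list but D1 SS, most potassium channel genes had an open promoter, called here where the centre of an assigned peak lay within 1000 bp of the authors' start site. Such a peak was present for 38, 56, 66 and 65 of the 79 genes in D1 SS, SC, CS and CC. In D2, in the same order, it was present for 65, 54, 60 and 61. These are 48.1%, 70.9%, 83.5% and 82.3% of members in D1, and 82.3%, 68.4%, 75.9% and 77.2% in D2. Over all protein-coding genes the shares were 58.1%, 67.1%, 76.6% and 80.3% in D1, and 73.3%, 71.1%, 69.1% and 73.6% in D2. With whole lists, D1 SS was the list in which the channel genes lay furthest below all genes. Its exact 95% binomial (Clopper-Pearson) interval, which covers counting error only, was 36.7 to 59.6%. D1 SC, of the other technical set, was nearly the same length (28321 against 28579 peaks). When every list was reduced to its strongest 27917 peaks by q, the counts became 37, 56, 52 and 49 in D1 and 44, 40, 60 and 35 in D2. The shares over all genes were then 57.7%, 66.9%, 66.4% and 64.9% in D1 and 58.4%, 56.5%, 69.1% and 56.5% in D2. At equal length the members lay furthest below all genes in D2 CC, with 44.3%, and next in D1 SS, with 46.8%. The order of the lists thus changed when they were reduced, and the cause was not tested. D1 SS stayed below the other D1 lists.

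**Figure D1:**
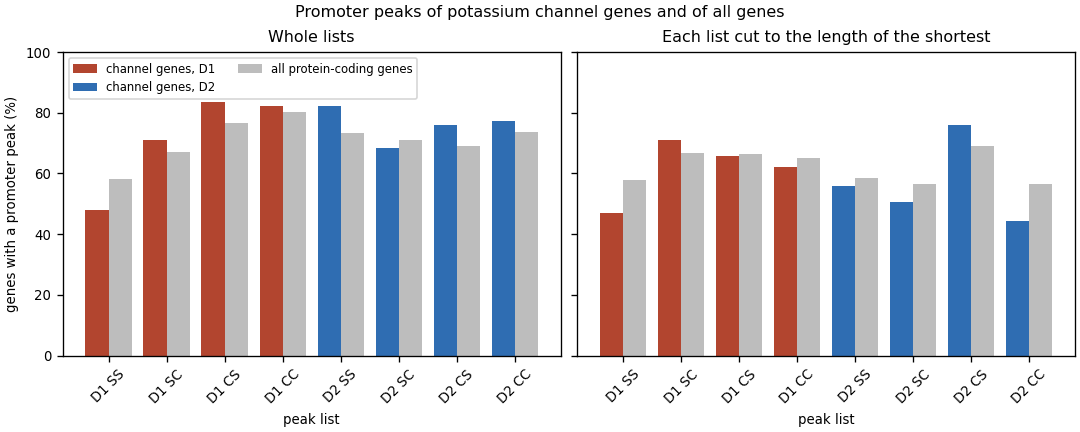
Share of genes with a promoter peak (y axis, %) in each peak list (x axis), for the 79 potassium channel genes (coloured bars) and all 15172 protein-coding genes (grey bars). The left panel uses whole lists and the right panel the strongest 27917 peaks of each. D1 SS is the lowest of the D1 lists in both panels.

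A promoter peak in all 8 lists was found for 38 genes, and 7 genes had one in none. The 38 are 48.1% of members, against 51.6% of all genes. They included the A-type channels Kcnd1, Kcnd2 and Kcnd3, the partners Kcnip2, Kcnip3 and Kcnip4, the rectifiers Kcnj2 and Kcnj12, GIRK1 (Kcnj3), the M-current gene Kcnq5, and the BK channel Kcnma1. The 7 without one, 8.86% of members against 12.2% of all genes, were Kcna10, Kcnh6, Kcnh8, Kcnj1, Kcnmb2, Kcnn4 and Kcnq1. Without D1 SS, 51 members (64.6%) had a promoter peak in every remaining list, against 57.9% of all genes.

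The difference between 38 and 51 was made by 13 genes that lacked a promoter peak only in D1 SS. They were Kcna6, Kcne3, Kcng1, Kcng2, Kcnip1, Kcnj4, Kcnj9, Kcnj11, Kcnk1, Kcnk7, Kcnk10, Kcnk13 and Kcns3. They made up 16.5% of members, against 6.35% of all genes. With lists of equal length 3 genes kept this pattern, Kcnj9, Kcnk1 and Kcnk10, which is 3.80% of members against 1.61% of all genes. No member had a promoter peak in D1 SS that D1 SC, D1 CS, D1 CC or D2 SS lacked, against 3.08%, 2.04%, 2.04% and 1.89% of all genes. In the other direction 18, 28, 27 and 27 members had a promoter peak in those lists and none in D1 SS. Over all genes 12.1%, 20.5%, 24.2% and 17.1% did.

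The channel promoters were mostly modest peaks. Within each list the authors' fold enrichment of a gene's promoter peak was placed as a percentile among all promoter peaks of protein-coding genes. The median percentile of the members was 23.1 to 28.3 over the 8 lists, and 5 to 10 members a list lay above the middle. Kcnip4 had the highest median percentile over its lists, 74.8, followed by Kcnn2 with 68.2 and Kcnmb4 with 66.4. Kcnj4 at 4.70, Kcnh3 at 3.15 and Kcnc4 at 1.06 were among the lowest. Low peaks lie nearer to the caller's limit, and what part this has in the D1 SS counts was not tested.

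Part of the missing promoter peaks came from how peaks were given to genes, since the authors credited each peak to 1 gene. Counting any peak centred within 1000 bp of a start site raised the counts to 40, 58, 69 and 70 in D1 and 67, 57, 61 and 64 in D2. The shares over all genes rose as well, to 63.6%, 72.9%, 82.3% and 86.0% in D1 and 79.0%, 76.8%, 74.7% and 79.3% in D2. Kcnq3, an M-current subunit, had an assigned promoter peak in 2 lists and a peak at its start in all 8, of which 6 were credited to Gm27242. Kcnk2 (TREK-1) went from 5 lists to 8, with 3 credited to A430027H14Rik. Kcnk3 (TASK-1) went from 1 to 7 and then lacked a peak in D1 SS only. Kcnh8 went from 0 to 3. By position, 40 members had a promoter peak in all 8 lists and 15 lacked one in D1 SS alone (19.0% against 6.55% of all genes). The credited neighbours carried the files' class misc, not protein-coding.

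**Figure D2:**
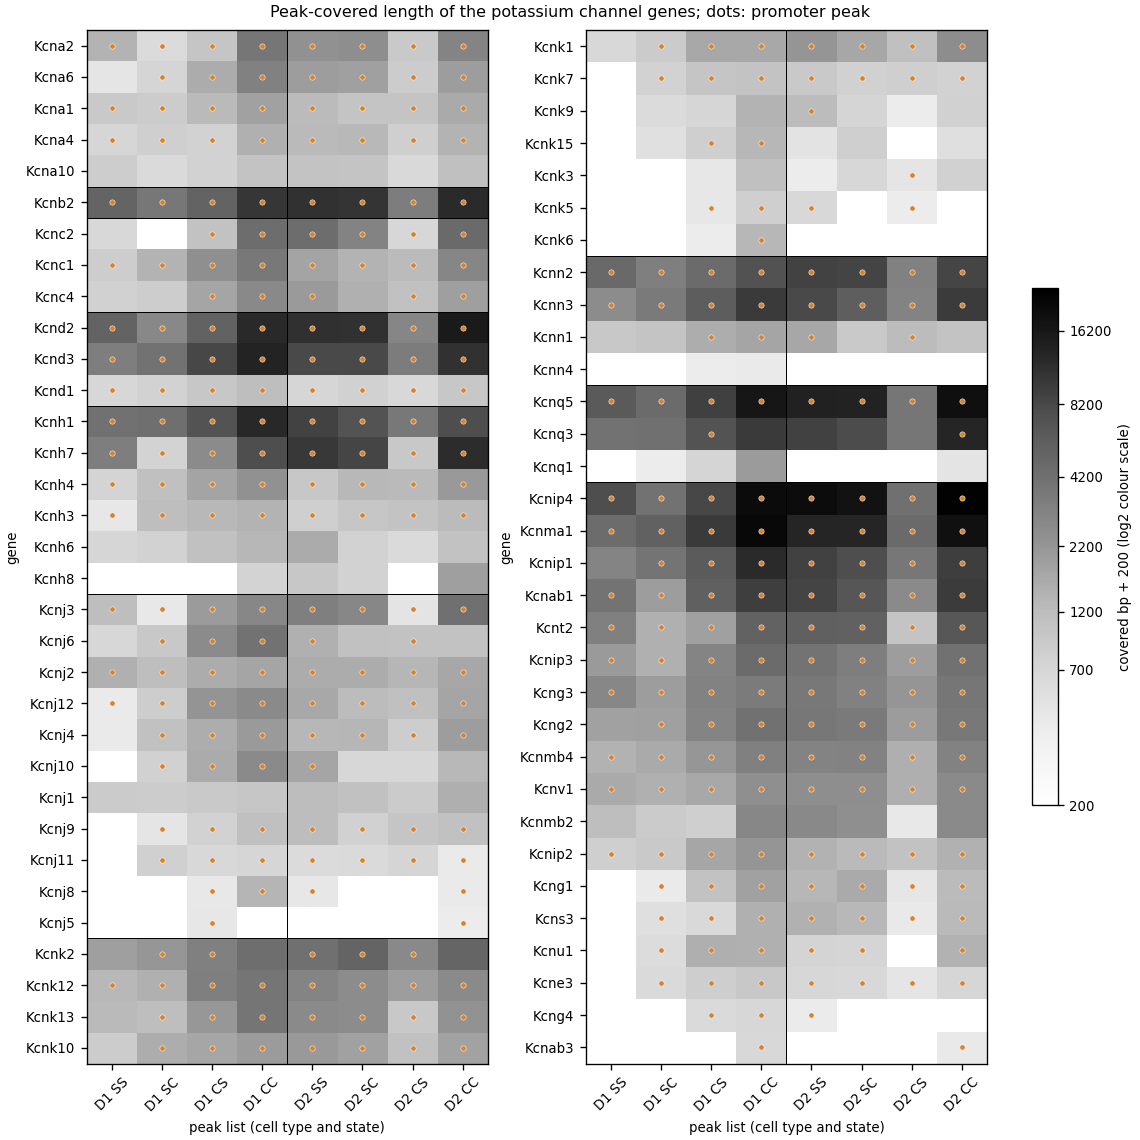
Covered length of 65 of the 79 genes, those described in the text (rows), in each list (columns), in bp on a log2 colour scale with 200 bp added. Dots mark a promoter peak by the authors' assignment. Genes are grouped by subfamily, with those outside the named subfamilies at the end, and sorted by mean covered length. Long genes such as Kcnip4 are dark throughout, and the D1 SS column holds the fewest dots.

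The 8 named subfamilies with 3 or more members, 54 genes in all, differed in promoter calls and in how much of their covered length lay in gene bodies. A peak in every gene and list would give 100%. Over all protein-coding genes the share in a list was 58.1 to 80.3% by assignment and 63.6 to 86.0% by position. The share of gene and list pairs with a promoter peak was 100% in Kcnd, 84.4% in Kcnc, 83.9% in Kcna, 75.0% in Kcnh, 68.2% in Kcnj, 62.5% in Kcnn, 57.3% in Kcnk and 52.5% in Kcnq. By position Kcnh became 79.7%, Kcnq 67.5% and Kcnk 66.7%, while Kcnn stayed at 62.5% and was then the lowest of the 8. With lists of equal length the shares were 95.8% in Kcnd, 78.6% in Kcna, 68.75% in Kcnh and 56.25% in both Kcnc and Kcnn. Kcnj then had 48.9%, Kcnq 42.5% and Kcnk 38.5%, against 56.5 to 69.1% of all genes in a list. Only genes with a peak in some list are counted. These were 11 of 15 RefSeq genes in Kcnj, 12 of 14 in Kcnk and 7 of 8 in Kcna. Gene-body peaks made up 79.4% of the covered length in Kcnd, 78.8% in Kcnq and 72.3% in Kcnh, against 24.7% in Kcna. The Kcna genes are short, with a median of 12.6 kb against 300.3 kb in Kcnq. Genes of a subfamily are not replicates, so these are descriptions.

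**Figure D3:**
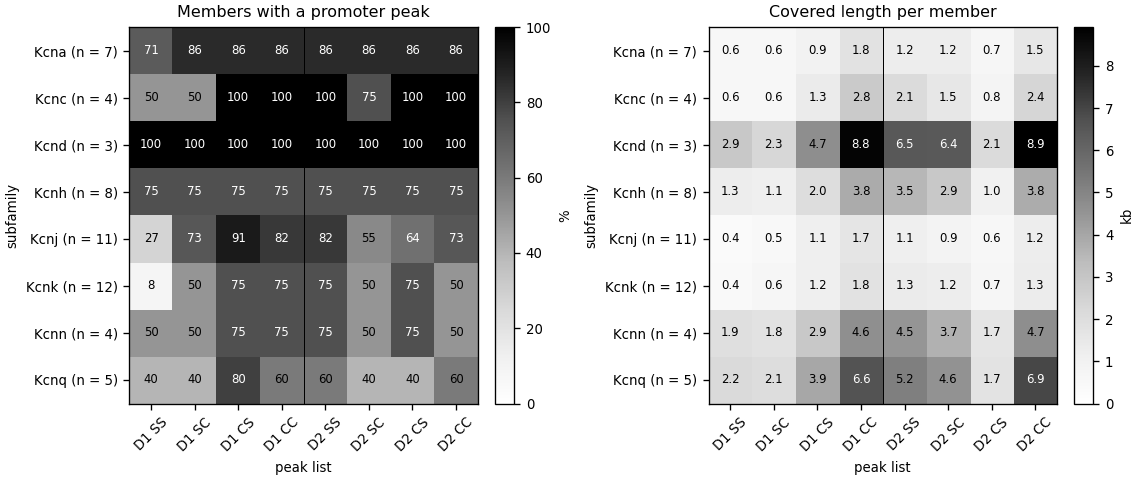
Promoter calls (left, % of members) and covered length per member (right, kb) of the 8 subfamilies (rows, with the number of members) in each list (columns). Kcnd is at 100% in every list, and Kcnj and Kcnk have their fewest promoter calls in D1 SS.

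Values of a gene are given below in the order SS, SC, CS and CC for D1 and then for D2, as the bp covered by all its assigned peaks. The Kir2 group, which holds MSNs at rest, contained a gene of nearly even coverage and 2 that were lowest in D1 SS. Kcnj2 covered 1265, 978, 1357 and 1530 bp in D1 and 1361, 1351, 1136 and 1471 bp in D2. Its promoter was called in every list, and the lengths stayed close together although the lists differed in size. Kcnj12 (Kir2.2) covered 230, 646, 2033 and 2443 bp in D1 and 1436, 1006, 934 and 1534 bp in D2, lowest in D1 SS. Kcnj4 (Kir2.3) covered 217, 913, 1322 and 1837 bp in D1 and 1100, 1140, 655 and 1747 bp in D2. Its promoter peak, absent in D1 SS, was at or under the 17.1 percentile in every other list. The fourth member, Kcnj14, had no peak.

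The GIRK genes were less uniform. Kcnj3 had a promoter peak in all 8 lists and covered 976, 240, 1824 and 2639 bp in D1 and 2991, 2611, 294 and 3938 bp in D2. Its lowest lists were D1 SC and D2 CS, which are also among the 3 shortest. Kcnj6 (GIRK2) covered 482, 729, 2429 and 3861 bp in D1 and 1276, 910, 876 and 874 bp in D2. It was highest in D1 CC and D1 CS, and its promoter peak was missing in D1 SS, D2 SC and D2 CC. Kcnj9 had no peak in D1 SS and covered 278, 558 and 930 bp in D1 SC, CS and CC, and 992, 582, 804 and 881 bp in D2. Kcnj5 (GIRK4) had a single promoter peak of 253 bp in D1 CS and one of 202 bp in D2 CC.

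The pore genes of ATP-sensitive channels had little coverage, and none in D1 SS. Kcnj11 (Kir6.2) covered 591, 466 and 511 bp in D1 SC, CS and CC, and 420, 446, 517 and 218 bp in D2. Kcnj8 (Kir6.1), known from vessels, covered 1168 bp in D1 CC, 217 to 263 bp in D1 CS, D2 SS and D2 CC, and had no peak in the other 4 lists. Of their sulfonylurea receptor partners, Abcc8 had a promoter peak in every list and Abcc9 no peak in any. Kcnj10 (Kir4.1), the main glial channel, had no peak in D1 SS and covered 581, 1390 and 2476 bp in D1 SC, CS and CC, and 1520, 495, 486 and 1085 bp in D2. Vascular markers with a peak numbered 2, 1, 2 and 3 of 3 in D1 and 2, 2, 2 and 2 of 3 in D2, over 440 to 3465 bp in all. Astrocyte markers with a peak numbered 1, 0, 2 and 3 of 4 in D1 and 1, 0, 0 and 2 of 4 in D2. Their summed length was 254, 0, 1012 and 1447 bp in D1 and 249, 0, 0 and 406 bp in D2. Their part in the Kcnj8 and Kcnj10 values was not tested, nor can fewer cells and less open DNA per cell be told apart.

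The A-type genes had the largest summed covered length of the role groups in every list, from 16989 bp in D2 CS to 65305 bp in D1 CC. Its 8 genes, Kcnd1 to Kcnd3, Kcna4 and Kcnip1 to Kcnip4, all had a promoter peak in every list except D1 SS, where Kcnip1 had none. Kcnip4, the longest member at 1136 kb, covered 7378, 3830, 8209 and 19348 bp in D1 and 19214, 17508, 4004 and 22785 bp in D2. Kcnd2 covered 5047, 2566, 5147 and 12225 bp in D1 and 11093, 10875, 2670 and 15155 bp in D2. Both were lowest in D1 SC and D2 CS and highest in D2 CC. Kcnd3 (Kv4.3) covered 3100, 3819, 8151 and 13116 bp in D1 and 7772, 7797, 3199 and 10828 bp in D2, with D1 CC highest. Kcnip1 covered 2754, 3661, 5896 and 11947 bp in D1 and 8739, 7346, 3440 and 9133 bp in D2, also with D1 CC highest. Kcnd1, a 14.5 kb gene on chromosome X, stayed between 465 and 981 bp. The accessory gene Dpp6 covered 3776 to 28966 bp in D1 and 4144 to 25337 bp in D2, with the most in the CC list of each.

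Delayed rectifiers, which repolarise the cell after a spike, included long and short genes. Kcnb2 (Kv2.2) covered 4976, 3486, 5071 and 10303 bp in D1 and 10839, 10486, 3130 and 11890 bp in D2. Among the Shaker-type genes, Kcna2 covered 419 to 3544 bp and Kcna1 667 to 1626 bp, both with a promoter peak in all 8 lists. Kcna10 had no promoter peak, but 1 gene-body element (chr3:107188093-107189038) was present in all 8 lists.

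The Kv3 genes, which serve fast spiking, included a gene whose coverage followed list length closely. Kcnc2 (Kv3.2) covered 463, 0, 864 and 4258 bp in D1 and 4193, 2777, 491 and 4435 bp in D2. It was thus without a peak in D1 SC, at most 864 bp in the 4 shortest lists and at least 2777 bp in the 4 longest. Kcnc1 had a promoter peak in every list. Of 4 interneuron markers, 0, 0, 2 and 4 had a peak in D1 and 2, 2, 1 and 2 in D2, with 0 to 1624 bp in all, and their part in the Kcnc2 values was not tested.

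Among the Kcnh genes, the ether-a-go-go family, 6 of 8 had a promoter peak in every list and Kcnh6 and Kcnh8 in none. Kcnh1 covered 3889, 4066, 6835 and 12298 bp in D1 and 8697, 6875, 3394 and 7428 bp in D2, highest in D1 CC. Kcnh7 followed another order, with 3074, 554, 2422 and 7449 bp in D1 and 9936, 8379, 727 and 11703 bp in D2. Its 3 highest values were D2 SS, D2 SC and D2 CC, all patch-poor, and its 2 lowest were D1 SC and D2 CS, both patch-rich. Patch-rich D1 CC came next after the highest with 7449 bp, and patch-poor D1 SS had 3074 bp. D1 SC and D2 CS are also the 2 shortest lists. Technical set, list length and cell type cannot be told apart in this order. Kcnh7 had 20 gene-body elements and 0 of them in all 8 lists.

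The M-current genes were among the most covered. Kcnq5 covered 6013, 4355, 8999 and 16404 bp in D1 and 13498, 13256, 3553 and 18325 bp in D2. Kcnq3 covered 3822, 3997, 6842 and 9728 bp in D1 and 8836, 7506, 3528 and 12761 bp in D2. Both had D2 CC as the highest list. Kcnq1, the cardiac and epithelial member, had no peak in 4 lists and reached 1808 bp in D1 CC.

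Calcium-activated channels, which link calcium entry to repolarisation, had their main pore genes open in every list. Kcnma1, the BK pore, covered 4339, 5206, 9731 and 20614 bp in D1 and 12946, 12841, 4482 and 18258 bp in D2. Of its beta subunits, Kcnmb4, the neuronal one, had a promoter peak in all 8 lists with 1210 to 2928 bp. Kcnmb2 had none, yet its element at chr3:32011948-32012814 was present in all 8 lists. Among SK genes Kcnn2 covered 2875 to 8576 bp and Kcnn3 2374 to 9743 bp, with promoter peaks throughout. Kcnn1 had a promoter peak in 4 lists, and Kcnn4, known from blood cells, had 205 bp in D1 CS, 227 bp in D1 CC and no other peak. The sodium-activated Kcnt2 covered 2927, 1256, 1670 and 5144 bp in D1 and 5348, 5232, 834 and 6357 bp in D2.

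The K2P leak channels (Kcnk), which set the resting conductance, had 1 of 12 promoters called in D1 SS, Kcnk12, and 6, 9 and 9 in D1 SC, CS and CC. In D2 they had 9, 6, 9 and 6. The shares over all genes were 58.1%, 67.1%, 76.6% and 80.3% in D1 and 73.3%, 71.1%, 69.1% and 73.6% in D2. These calls follow the authors' assignment. By position, the Kcnk gene and list pairs with a promoter peak rose from 55 to 64 of 96. The added calls were Kcnk2 in D1 SS, D1 CC and D2 CC, and Kcnk3 in 6 lists. Kcnk2, the most covered, had 1707, 1976, 2971 and 4101 bp in D1 and 3979, 4907, 2519 and 4848 bp in D2. Kcnk10 (TREK-2) held an element present in all 8 lists at chr12:98535255-98535983, 39134 bp from the assigned start site. Kcnk3 and Kcnk9, the TASK genes, had no peak in D1 SS. Kcnk9 had a promoter peak in D2 SS only, and an element at chr15:72516867-72517492 in every list but D1 SS. Kcnk6 had a promoter peak in D1 CC only.

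The silent modifier subunits do not form channels alone, and 9 of 10 had a peak in some list. They had a promoter peak for 4, 7, 8 and 8 genes in D1 and 8, 7, 7 and 8 in D2. Kcng3 covered 1736 to 3548 bp and Kcnv1 1265 to 2472 bp with promoter peaks in all lists, while Kcng4 had peaks in D1 CS, D1 CC and D2 SS only. Kcnab1, the most covered cytoplasmic beta subunit, covered 3746, 1756, 5379 and 9171 bp in D1 and 8397, 6477, 2457 and 9513 bp in D2. Of the related pacemaker genes outside the name rule, Hcn4 had a promoter peak in every list, and Hcn2 and Hcn3 had no peak in D1 SS.

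Gene bodies carried most of the peaks of this family. They held 139, 117, 217 and 394 member peaks in D1 and 322, 298, 105 and 378 in D2. This was 52.2 to 77.3% of member peaks in a list, against 30.7 to 58.3% over all protein-coding genes. Members are longer, with a median of 41.7 kb against 26.4 kb, and 29.1% against 15.8% exceed 100 kb. Per kb of gene, gene-body peaks covered 5.98, 4.50, 9.03 and 18.6 bp in members in D1 and 15.5, 14.1, 3.87 and 18.7 bp in D2. The values over all genes were 3.32, 2.62, 6.36 and 13.0 bp in D1 and 10.2, 9.43, 2.26 and 12.1 bp in D2. Among genes over 100 kb the members were again higher in each list, as in D1 SS with 6.19 against 3.78 bp and D2 CC with 19.0 against 13.6 bp. Across the 79 genes, length and the bp covered by gene-body peaks had a Spearman correlation of 0.62 to 0.82 in a list. This is a description in which all points come from the same list.

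Merging the gene-body peaks of the 8 lists gave 515 elements, the largest numbers in Kcnip4 (48), Kcnma1 and Kcnq5 (40 each), Kcnh1 (32) and Kcnd2 (31). Of the 515, 63 (12.2%) were present in all 8 lists, against 9.49% of 34029 such elements over all genes. Another 145 (28.2%) were in 1 list, of which D1 CC held 63 and D2 CC 43, and these are the longest lists of each cell type. Over all genes 31.4% of elements were in 1 list, 16.0% in D1 CC alone and 7.16% in D2 CC alone, beside 12.2% and 8.35% in members. Elements in all 8 lists were spread along the genes, with 15, 14, 16 and 18 in the 4 equal parts of the gene from start to end. Examples, picked by the highest fold that any list gave them although fold is not scaled between lists, were in Kcnd3 (chr3:105571822-105572791), Kcnt2 (chr1:140489655-140490384), Kcnb2 (chr1:15358288-15359040), Kcnab1 (chr3:65231208-65232274), Kcnip1 (chr11:33860595-33861358), Kcnd2 (chr6:21551225-21552042), Kcnh1 (chr1:192368080-192368896), Kcnj6 (chr16:94850264-94851007) and Kcnq5 (chr1:21563191-21563971). Whether these lie in exons or introns was not analysed here.

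**Figure D4:**
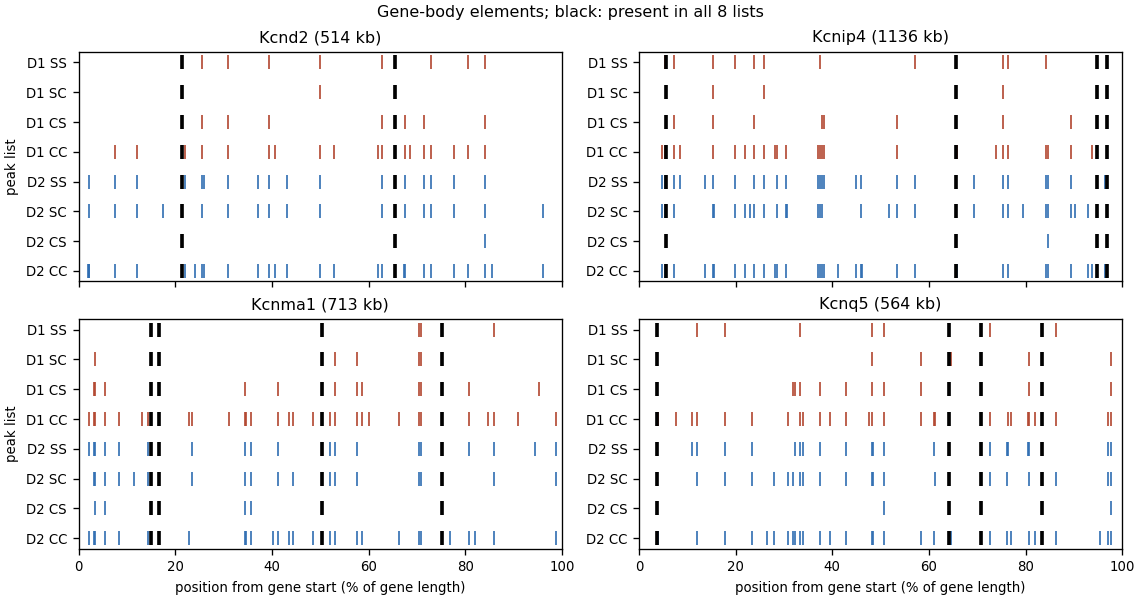
Gene-body elements along Kcnd2, Kcnip4, Kcnma1 and Kcnq5, by position from the gene start (x axis, % of gene length) in each list (rows). Red marks are D1, blue marks D2 and black marks the elements present in all 8 lists. Kcnd2 has 2 black elements and the other genes 4 each, and summed over the 4 genes the D1 SC and D2 CS rows hold the fewest marks.

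No element separated the cell types: 0 were shared by all D1 lists while absent from D2, and 0 the other way round, against 0 and 14 of the 34029 elements over all genes. Another 6 were in every patch-poor list and no patch-rich list, 1.17% against 0.29% of all elements. These were 2 in Kcnn2 and 1 each in Kcnab1 (chr3:65172807-65173317), Kcnb2 (chr1:15445704-15446430), Kcnc2 (chr10:112438831-112439418) and Kcnip4 (chr5:48875343-48875865). None showed the reverse. Another 11 (2.14%, against 1.54% of all elements) were in all lists but D1 SS, among them elements in Kcna6, Kcng2, Kcnh1, Kcnj10, Kcnk9, Kcnma1, Kcnn3, Kcnq3 and Kcnq5. In 3 or more D2 lists and no D1 list there were 20 elements, and 1, in Kcnip1 (chr11:33755042-33755259), was in 3 D1 lists and no D2 list. These were 3.88% and 0.19% of member elements against 3.80% and 0.21% of all, so members did not stand out. Among gene-body peaks of members, 97.8% of D1 SS were found in D2 SS, and 41.6% of D2 SS in D1 SS, where the lists hold 139 and 322. Over all genes these shares were 96.7% and 35.1%. A peak was found where it shared at least 1 bp.

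To compare lists of unequal size, the covered bp of each gene were scaled to the mean total of both lists and a log2 ratio was taken with 200 bp added. A gene was counted when the ratio reached 2-fold (log2 of 1). Genes with a peak in either list were compared. The share of all protein-coding genes past the same limit is given as background. The comparisons within a cell type share their SS, SC, CS or CC list. Without the scaling the median ratio of all genes lay between -0.88 (D1 SS over D2 SS) and 1.18 (D1 CC over D1 SS).

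Against D1 SS, acute cocaine gave 13 of 68 members higher in D1 SC (background 15.2%) and 9 lower (background 7.67%). Kcnj11 and Kcnj10 were among the highest, both with no assigned peak in D1 SS. Kcnh7 at -2.22, Kcnc2 at -1.77 and Kcnj3 at -1.50 were lowest on the log2 scale. In D1 CS over D1 SS 19 of 77 were higher (background 22.9%) and 4 lower (background 4.02%). Kcnj10 and Kcnu1 were among the highest, again without a peak in D1 SS, and Kcnt2 was lowest at -1.55. In D1 CC over D1 SS 26 of 78 were higher (background 28.7%) and 3 lower (background 7.06%), the 3 being Kcng3, Kcnj2 and Kcnj1 at -1.11, -1.10 and -1.04. That direction comes from the scaling: without it their ratios were 0.32, 0.24 and 0.17. Without scaling the counts were 41 higher and 0 lower in D1 CS over D1 SS, and 65 and 0 in D1 CC over D1 SS, where 39.1% and 60.0% of all genes were higher. Each of these comparisons crosses the technical sets.

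Within the patch-rich set, D1 CC over D1 SC gave 16 of 78 members higher (background 21.7%) and 1 lower (background 6.84%), Kcnj11 at -1.20. Kcnc2 was highest at 3.97, with no peak in D1 SC, and Kcnj8 was also among the 3 highest. The members' median was 0.19 against -0.13 for all genes, and -0.01 against -0.11 with lists of equal length. In D1 CC over D1 CS 7 of 79 were higher (background 9.14%) and 1 lower (background 3.24%), Kcnj5 at -1.39. Kcnh8 at 1.70, Kcnab3 at 1.55 and Kcnc2 at 1.51 were highest. Kcnh8 and Kcnab3 had no peak in D1 CS and Kcnj5 none in D1 CC, so their ratios depend on the 200 bp added. With lists of equal length, 4 members were higher and 6 lower in D1 CC over D1 SC. In D1 CC over D1 CS 4 were higher and 3 lower, so these counts changed under this setting. All genes then had 9.19% higher and 8.05% lower in the first, and 6.69% and 7.54% in the second.

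Among the D2 lists of the patch-poor set, few members passed 2-fold. In D2 SC over D2 SS 0 of 74 members were higher (background 3.52%) and 5 lower (background 5.84%). Among them were Kcnk5 at -1.68, with no peak in D2 SC, and Kcnj10 at -1.21. In D2 CC over D2 SS 2 of 77 were higher (background 4.82%), Kcnq1 at 1.25 and Kcnab3 at 1.08. The 2 lower (background 4.06%) were Kcnk5 at -1.79 and Kcng4 at -1.09. Each of these genes had 1 peak, of 212 to 462 bp, in one list and none in the other. Their ratios thus depend on the 200 bp added. In D2 CC over D2 SC 5 of 75 were higher (background 6.25%) and 0 lower (background 3.01%). Without scaling D2 CC over D2 SS had 4 higher and 2 lower (5.85% and 3.91% of all genes). With lists of equal length D2 SC over D2 SS and D2 CC over D2 SS each had 2 higher and 4 lower of 58, and D2 CC over D2 SC 3 and 4 of 57. Large genes such as Kcnip4, Kcnd2 and Kcnma1 were under 2-fold in all 3 comparisons. D2 SC and D2 CC rest on 1 library each.

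Withdrawal in D2 could be compared only across the sets. In D2 CS over D2 SS 2 of 74 members were higher (background 7.37%), Kcnh4 at 1.23 and Kcnh3 at 1.19, and 10 lower (background 17.0%). Kcnh7 at -2.53, Kcnh8 at -1.95 and Kcnj3 at -1.90 were lowest. The median of the members was -0.07 against 0.28 for all genes, and 0.07 against 0.16 with lists of equal length. In D2 CC over D2 CS 13 of 76 were higher (background 18.0%) and 4 lower (background 10.3%). Kcnh8 at 2.84 and Kcnh7 at 2.61 were highest and Kcnj11 at -1.57 lowest. The 2 comparisons share D2 CS, in which Kcnh7 covered 727 bp and Kcnh8 had no peak. Without scaling, 0 were higher and 37 lower in D2 CS over D2 SS, and 39 higher and 1 lower in D2 CC over D2 CS. All genes then had 4.40% and 34.0% in the first and 39.5% and 4.32% in the second. With lists of equal length D2 CS over D2 SS turned to 15 higher and 6 lower, and D2 CC over D2 CS to 6 and 17. All genes turned alike, with 17.2% higher and 8.48% lower in the first and 8.79% and 18.8% in the second.

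Between the cell types, D1 SS over D2 SS, which lies within the patch-poor set, had 0 of 74 members higher (background 2.87%) and 17 lower (background 21.5%). Kcnj10 and Kcns3 were among the 3 lowest, both with no assigned peak in D1 SS, and Kcnj2 was highest at 0.94. With lists of equal length 4 were higher and 7 lower, against 8.45% and 9.93% of all genes. In D1 SC over D2 SC 1 of 70 was higher (background 7.19%), Kcnq1, and 12 lower (background 15.6%), with Kcnc2, Kcnh7 and Kcnj3 at -3.53, -2.71 and -2.00. At equal length this became 16 higher and 7 lower, against 18.2% and 8.64% of all genes. In D1 CS over D2 CS, within the patch-rich set, 7 of 77 were higher (background 14.4%) and 0 lower (background 3.66%), with Kcnu1 at 2.61 and Kcnk15 at 1.77 highest, both with no peak in D2 CS. At equal length it had 4 higher and 7 lower, against 8.73% of all genes each way. In D1 CC over D2 CC 8 of 79 were higher (background 11.7%) and 2 lower (background 3.89%). Kcnk6, Kcnk5 and Kcnq1 were highest at 2.63, 1.97 and 1.90, and Kcnh8 and Kcnj5 lowest at -1.49 and -1.05. Kcnk6 and Kcnk5 had no peak in D2 CC and Kcnj5 none in D1 CC, so their ratios depend on the 200 bp added. Without scaling, D1 over D2 had 50 members lower in SS, 24 lower in SC and 26 higher in CS. All genes then had 44.8%, 30.6% and 27.8%.

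Of the genes that could be compared in 3 states, Kcnq1 was at least 2-fold higher in D1 in all 3 (1.29, 1.61 and 1.90 in SC, CS and CC) and Kcnh8 at least 2-fold lower in all 3 (-1.92, -1.65 and -1.49 in SS, SC and CC). Kcnq1 had no peak in D2 SS, D2 SC and D2 CS, and Kcnh8 none in D1 SS, D1 SC and D1 CS, so these ratios depend on the 200 bp added. Kcnh7 was lower in D1 SC over D2 SC at -2.71 on the log2 scale and within 2-fold in D1 CC over D2 CC, at -0.81. In most comparisons the members' share lay near the background, with differences of a few genes in either direction.

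**Figure D5:**
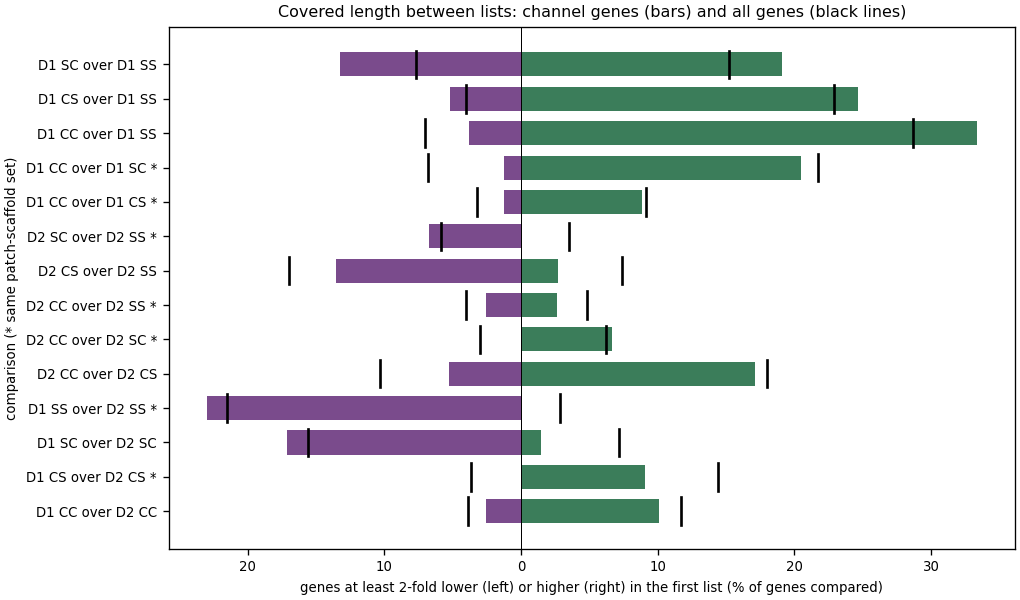
Share of potassium channel genes at least 2-fold higher (green, right) or lower (purple, left) in the first list of each of the 14 comparisons, in % of genes compared. Black lines give the same share over all protein-coding genes, and an asterisk marks comparisons within a technical set. Most bars end near their black line.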

How the data were processed

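The 8 deposited ATAC-seq peak lists, 1 a group, stand for 26 libraries. Per the submitters' processing notes the build was mm10 and the tools were MACS2, HISAT, cutadapt and SAMtools; their versions, and whether the libraries of a group were pooled for peak calling, are not given in the sources used here. Per the file headers, each peak has a fold enrichment (a ratio over background) and a q-value, both deposited by the authors, with its positions and 1 assigned gene with a distance to its start site. Fold was used to rank promoter peaks within a list and, although it is not scaled between lists, to pick example elements. The number of columns per library was 0, so there was no replicate error, p-value or paired fit. Depth is unknown, because the lists hold no read totals.

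Peaks off the autosomes, X and Y (802) were left out. The smallest peak was 200 bp. Members, subfamilies, role groups, markers and the rule for named genes were chosen with earlier results of these data known. Named genes were, by that rule, the 2 most covered members of each subfamily, members without a promoter peak or with one in 1 to 7 lists, the 3 highest and 3 lowest ratios of each comparison, a list of striatal channel genes, and genes with elements in all lists but 1. Other members were named after their values were seen, and results on some members are not reported here. Elements are gene-body peaks over 1000 bp from the start site, merged over lists at 1 bp of overlap. The overlap and ratio steps were tested on simulated data. Alternatives were a q of at most 1e-05, lists of equal length (27917 peaks by q), promoter limits of 250 and 3000 bp, a pseudocount of 1000 bp, no scaling, promoter and gene-body peaks only, and a reciprocal overlap of 50%. Promoter peaks by position, and counts without D1 SS or within a technical set, were chosen after seeing the data. The software was pandas 2.3.3 and numpy 2.4.6 under Python 3.11.15, with matplotlib 3.10.9 for plots and scipy 1.17.1 for intervals. RefSeq gave gene lengths and promoter windows of GRCm38.p6, the patched release of mm10.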

Additional observations from a re-analysis of the deposited data

Results flagged for a closer look

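In 5 genes the ratio of covered length to baseline was at least 2-fold up in one cell type and at least 2-fold down in the other. The difference between the cell types was not tested, since each group has 1 list. For acute cocaine over baseline, Kcnj10 was at 1.92 (log2) in D1 and -1.21 in D2. For withdrawal over baseline, Kcnk15 was at 1.73 in D1 and -1.09 in D2, and Kcnu1 at 2.57 in D1 and -1.57 in D2. For relapse over baseline, Kcng4 was at 1.39 in D1 and -1.09 in D2, and Kcnk5 at 1.62 in D1 and -1.79 in D2. All 5 genes had no assigned peak in D1 SS, Kcnk15 and Kcnu1 had none in D2 CS, and Kcng4 and Kcnk5 had none in D2 CC, so these ratios depend on the 200 bp added. The D1 ratios to baseline and the D2 withdrawal ratios also cross the technical sets. Opposite changes of this size were found in 5 of 77 members (6.49%) and in 1327 of 13706 genes (9.68%), over the contrasts to baseline and those of relapse with the acute and withdrawal states.

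Noncoding genes named after potassium channels were outside the name rule. Kcnq1ot1 had a peak in all 8 lists, with 501 bp in D1 SS. In D1 SS, the antisense genes Kcnab3os, Kcnd3os and Kcnmb4os1 had no peak. Kcnab3os had peaks over 273 bp in D1 SC, 618 bp in D1 CS and 1012 bp in D1 CC. Kcnd3os had 269 bp in D1 CC. Kcnmb4os1 had 311 bp in D1 CS and 745 bp in D1 CC. In D2 SS these genes covered 523, 400 and 490 bp. Peaks hold no strand, so a peak of an antisense gene cannot be told apart from one of its channel gene.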

How the results depend on the processing

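Counts of promoter calls were within 1.5 times of the reported values under promoter limits of 250 and 3000 bp, a q of at most 1e-05 and calls by position. The exception was D2 CC with lists of equal length (35 for 61). Gene-body peaks at equal length numbered 114 and 106 in CS and CC of D1, and 120, 122 and 121 in SS, SC and CC of D2, because fewer peaks remain. Elements in every list became 134 (26.0%, against 20.2% of all elements) over the 4 patch-poor lists. At equal length they were 51 of 213 (23.9%), beside 63 of 515 (12.2%) with whole lists. The share over all genes at equal length was not computed.

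Counts past 2-fold, given as members higher and lower, were less stable. At equal length D1 over D1 SS had 12 higher in CS and 13 in CC, against 17.9% and 17.0% of all genes. D1 CC over SC had 4 and 6, and D1 CC over CS had 4 and 3. D2 SC over SS had 2 higher (5.22% of all genes), D2 CS over SS 15 and 6, and D2 CC over SS 4 lower (7.51%). D2 CC over SC had 3 and 4 (6.86% and 6.03%), and D2 CC over CS 6 and 17. D1 over D2 had 4 and 7 in SS, 16 and 7 in SC, and 4 and 7 in CS. With 1000 bp added, D1 over D1 SS had 1 and 1 in SC, 2 and 1 in CS, and 5 and 0 in CC. All genes had 0.53% and 0.75% in SC, 2.05% and 0.77% in CS, and 4.38% and 1.22% in CC. D1 CC had 2 and 0 over SC (3.14% and 1.27% of all genes) and 1 and 0 over CS (0.86% and 0.75%). D2 SC over SS had 0 lower (0.31% of all genes), D2 CS over SS 0 and 6 (1.47% and 2.95%) and D2 CC over SS 0 and 0 (0.27% and 0.37%). D2 CC over SC had 0 higher (0.36%), and D2 CC over CS 8 and 0 (3.58% and 1.83%). D1 over D2 had 3 lower in SS (2.02% of all genes) and 0 and 4 in SC (1.37% and 2.74%). It had 1 higher in CS (1.12%) and 3 and 0 in CC (1.69% and 0.70%). Without scaling, D1 over D1 SS had 41 and 0 in CS (39.1% and 2.25% of all genes) and 65 and 0 in CC (60.0% and 1.57%). D1 CC had 55 and 0 over SC (51.1% and 1.66%) and 18 higher over CS (18.8%). D2 CS over SS had 0 and 37 (4.40% and 34.0% of all genes) and D2 CC over SS 4 higher (5.85%). D2 CC over SC had 9 higher (8.57%), and D2 CC over CS 39 and 1 (39.5% and 4.32%). D1 over D2 had 50 lower in SS (44.8% of all genes), 24 lower in SC (30.6%) and 26 higher in CS (27.8%). Without scaling Kcng3, Kcnj2 and Kcnj1 reversed in D1 CC over D1 SS, to 0.32, 0.24 and 0.17. At a q of at most 1e-05, D1 CC over CS had 11 and 2 (11.9% and 2.76% of all genes) and D2 SC over SS 1 higher (3.66%). D2 CS over SS had 1 higher (6.96%) and D2 CC over SS 5 higher (5.62%). D1 SC over D2 SC had 2 higher (7.02%), and D1 CS over D2 CS 14 and 2 (17.3% and 3.56%). With promoter and gene-body peaks only, D2 CS over SS had 1 higher (7.23% of all genes) and D1 CC over D2 CC 4 lower (4.05%). The cause of these changes was not tested. A reciprocal overlap of 50% lowered all 28 shares of gene-body peaks found in another list, to 11.6 to 74.1%.

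No paired analysis was possible because each group has 1 list and no column per library. No library was left out, since none has values of its own. Read totals are unknown, and a missing peak does not show closed chromatin.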
